A study of Mus musculus with 6 samples.

Results

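Splicing factor and hnRNP genes were read out of an array comparison of hematopoietic stem cell-enriched mouse marrow with and without induced deletion of Zeb2. A gene was a member if it had a probe set with exactly 1 symbol that begins with Sf3a, Sf3b, Srsf, Snrp, Hnrnp, Prpf, U2af or Lsm and a digit, or that is Rbm or Ddx followed only by digits, with Ddx58 and Ddx3y left out. These were 81 of the 10366 genes with a single-symbol probe set, and each was represented by its probe set with the highest mean over the 6 arrays. The tested mice carried floxed Zeb2 alleles, deleted in marrow by Mx1-Cre, a recombinase under an interferon-inducible promoter, and the labels give them as Zeb2Δ/ΔMx1-Cre, without a strain name. The WT mice are given as C57Bl/6 WT, and the labels name no Cre allele for them. Both groups received pIC, which induces interferon, when 6 weeks old, and LKS-Slam cells (bone marrow cells gated on lineage, Kit, Sca-1 and SLAM surface markers) were sorted 8 weeks later, at 14 weeks. Each group has 3 arrays, 1 per bone marrow sample, named as biological replicates.

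Introns are removed by the spliceosome, which assembles on each pre-mRNA from small nuclear ribonucleoproteins (snRNPs). Each snRNP holds an RNA inside a ring of Sm or Sm-like (LSm) proteins. U2AF and the SF3A and SF3B complexes of the U2 snRNP recognise the branch site and the 3′ splice site, PRPF proteins build the U4/U6.U5 tri-snRNP and the catalytic core, and DEAD-box (DDX) helicases drive its rearrangements. SR proteins and hnRNPs bind exons and introns and steer the choice of splice sites. In blood, genes of this machinery, among them SRSF2, U2AF1 and SF3B1, are known as recurrent targets of mutation in human myeloid neoplasms.

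Zeb2 itself read higher, not lower, in the Zeb2-KO-labelled arrays. Its log2 intensity was 7.79, 9.13 and 8.96 there, against 6.58, 7.51 and 7.34 in WT, from 1 probe set whose position relative to the deleted part is not given in the labels. Every direction below therefore rests on the labels. Among the arrays WT replicate 1 stood apart, with a mean correlation of 0.841 to the others, against 0.886 to 0.908 for the rest. Zeb2-KO replicate 1 and WT replicate 1 had raised Y-linked signal (mean log2 of 3 genes 6.17 and 5.13, against 3.82 to 4.03 in the rest). The mean log2 level of 7 measured genes of the sort gate, of 10 listed, was 8.30, 8.50 and 8.64 in Zeb2-KO replicates, against 7.83, 8.63 and 8.47 in WT. Of these genes 3 were higher and 4 lower. Slamf1 (Zeb2-KO minus WT 1.30) and Kit (0.53) were higher and Procr (-0.45) lower, each without overlap between the groups. Slamf1 read 5.76 in WT replicate 1, against 7.94 to 9.01 in the other arrays. Of 4 listed genes absent from the gate or low in it, 3 were measured, 1 higher and 2 lower. Among them Cd48 lay at -1.02 without overlap.

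Most splicing genes read somewhat higher in the Zeb2-KO-labelled arrays, and Sf3b4 was the clearest exception. Of the 81 members, 63 had a difference above 0 (77.8%, where 44.6% of the 14610 probe sets tested did), and 18 had one below 0. The median difference (Zeb2-KO minus WT, log2 intensity) was 0.32 over the members and -0.09 over all probe sets. Differences ran from -1.07 for Sf3b4, a subunit of SF3B, to 1.40 for Snrpd3, a protein of the Sm ring. All 10 hnRNP genes and all 8 nucleolar DDX genes were among the 63.

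None of the members passed limma's test at an adjusted p of 0.05, a threshold that 2 probe sets (0.0137% of those tested) passed, and the smallest adjusted p of a member was 0.602. At an unadjusted p under 0.05 lay 7 members on the higher side (8.64%, against 5.69% of all probe sets) and 1 on the lower (against 1.33%), 8 in all against a background of 7.02%. Groups did not overlap in 8 members that were higher (9.88%, against 6.9% of all probe sets) and in 1 that was lower (against 6.26%). Brightness matters to these shares. Among the 7305 brighter probe sets, those whose mean reached the overall median of log2 6.63, where 74 of the 81 members lie, 63.5% had a difference above 0, 8.69% an unadjusted p under 0.05 on the higher side and 10.4% no overlap on that side, and the median was 0.18. In that range 62 of the 74 members were higher (83.8%), with a median of 0.32. The share of members with a small p or without overlap was thus close to that of other bright probe sets. Of the 7 dimmer members 1 was higher and 6 were lower. Among all probe sets below that median 25.7% had a difference above 0, and their median was -0.23.

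The members' height above the array median broadly followed the spread of each array. Their median lay at percentile 85.0, 86.6 and 86.1 of the Zeb2-KO-labelled arrays and 82.8, 87.0 and 84.4 of the WT arrays, in replicate order. At a fixed percentile above the median the height tends to grow with spread for any set of genes. The members' percentile differed between arrays, and whether the relation is particular to splicing genes was not tested. The height of another bright set was not set against array spread here. The interquartile range of log2 values was 1.83, 2.40 and 2.11 for Zeb2-KO, against 1.59, 2.03 and 1.77 for WT, in replicate order. The median of the 81 members lay above the median of its array by 1.59, 2.11 and 1.87 in the Zeb2-KO-labelled arrays and by 1.23, 1.93 and 1.54 in WT. WT replicate 2 thus lay within the range of the Zeb2-KO-labelled arrays, and WT replicates 1 and 3 lay below all of them. WT replicate 1 held the lowest value of 41 members (50.6%, against 21.6% of all probe sets), and Zeb2-KO replicate 2 the highest value of 40 (49.4%, against 23.1%). After adding the interquartile range to the model as a covariate the median was 0.07 over the members and -0.01 over all probe sets. In that fit 47 of 81 members were higher (58%, against 49% of all probe sets). Unadjusted p lay under 0.05 for 0 members on the higher side and 6 on the lower, against 366 and 384 of the 14610 probe sets. The covariate is computed from the same values. It was higher in each Zeb2-KO-labelled array than in the WT array of the same number, so that fit cannot fully separate spread from group.

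**Figure D1:**
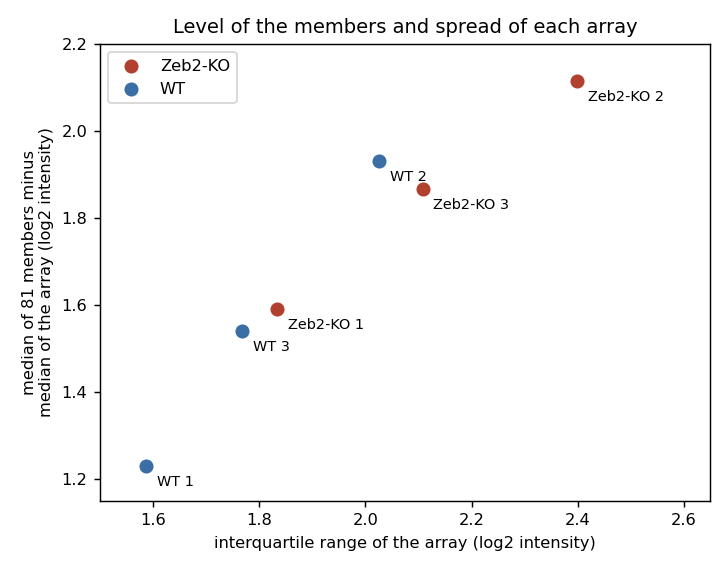
Interquartile range of log2 intensity of each array (horizontal) and the median of the 81 members minus the median of that array (vertical, log2 intensity), 1 point per array, Zeb2-KO in red and WT in blue. The widest array, Zeb2-KO replicate 2 (2.40), has the highest members (2.11), and the narrowest, WT replicate 1 (1.59), has the lowest (1.23). The order is not complete, as WT replicate 2 (2.03) has higher members (1.93) than the wider Zeb2-KO replicate 3 (2.11, members at 1.87). No other set of genes is plotted.

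Single arrays moved these values. Without WT replicate 1 the median was 0.15. There 1 member was left at an unadjusted p under 0.05 on the higher side, as were 521 of the 14610 probe sets. The count was likewise 1 without Zeb2-KO replicate 2 (418 probe sets, median 0.22). It was 4 without Zeb2-KO replicate 3 (599 probe sets) or WT replicate 3 (730), and 9 without Zeb2-KO replicate 1 (1217). Without WT replicate 2 it was 20 (1335 probe sets), with a median of 0.48. Of the 63 higher members, 52 stayed above 0 with each array left out in turn, 51 with quantile normalization and 42 with the spread covariate, and 39 in all of these. Median differences of the members were positive in every one of these fits.

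**Figure D2:**
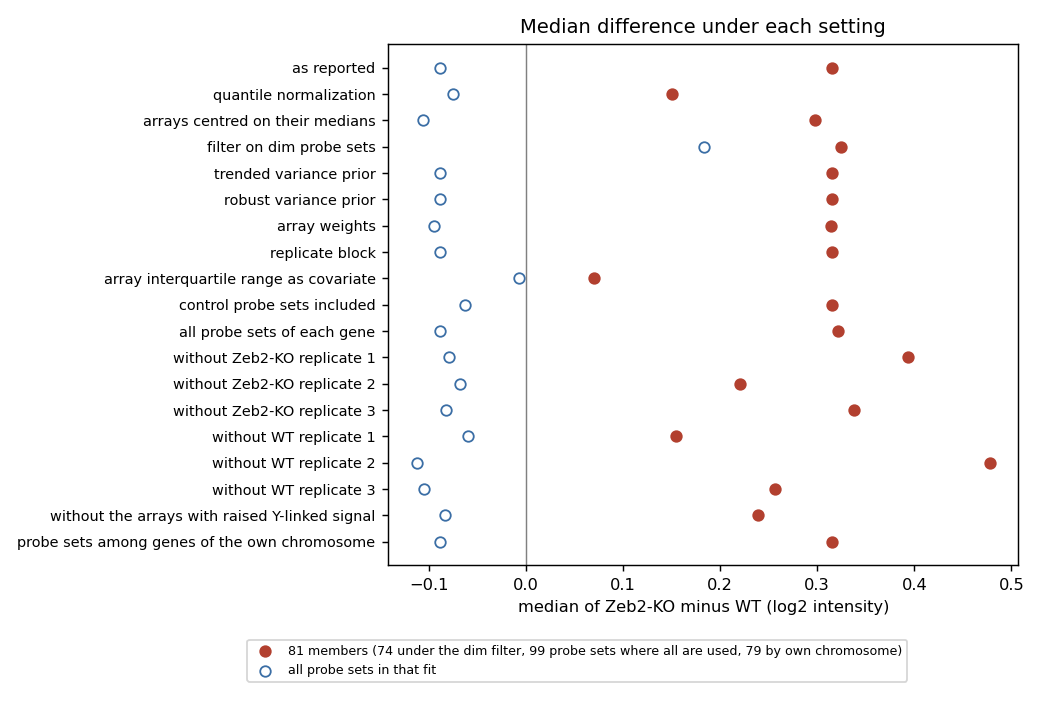
Median of the Zeb2-KO minus WT difference (log2 intensity, horizontal) over the members (red) and over all probe sets of the same fit (open blue), 1 line per setting. The member median is 0.32 as reported, 0.15 with quantile normalization or without WT replicate 1, and 0.07 once array spread enters the model.

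Several marker lists of other cells and of cycling cells were separate or nearly so between the groups. The mean log2 level of 15 measured cell cycle genes of 16 listed was 8.10, 8.75 and 8.33 in the Zeb2-KO-labelled arrays and 7.28, 8.30 and 7.79 in WT, and all 15 were higher. The mean of 7 of 8 megakaryocyte and platelet genes lay at 8.00 to 8.83 in the Zeb2-KO-labelled arrays and 6.59 to 7.34 in WT. The mean of 4 of 8 erythroid genes lay at 7.71 to 8.62 in Zeb2-KO and 7.16 to 7.29 in WT. The mean of 7 of 8 B cell genes lay at 6.45 to 7.11 in the Zeb2-KO-labelled arrays and 7.19 to 8.23 in WT, and that of 5 of 9 monocyte and dendritic cell genes at 7.66 to 8.32 in Zeb2-KO and 8.39 to 8.96 in WT. The granulocyte list (4 of 8) lay at 6.16 to 7.03 in the Zeb2-KO-labelled arrays, against 6.02 to 6.20 in WT, with overlap and 2 genes in each direction. The T and NK cell list (5 of 8) overlapped, at 5.22 to 5.72 in the Zeb2-KO-labelled arrays and 5.23 to 5.58 in WT. The 4 of 8 stromal genes measured were all lower. No marker is at 0 in these values. The part of cell makeup, cycling or array spread in the members' differences was not tested, and in bulk samples more cells of a type and more RNA per cell cannot be told apart.

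**Figure D3:**
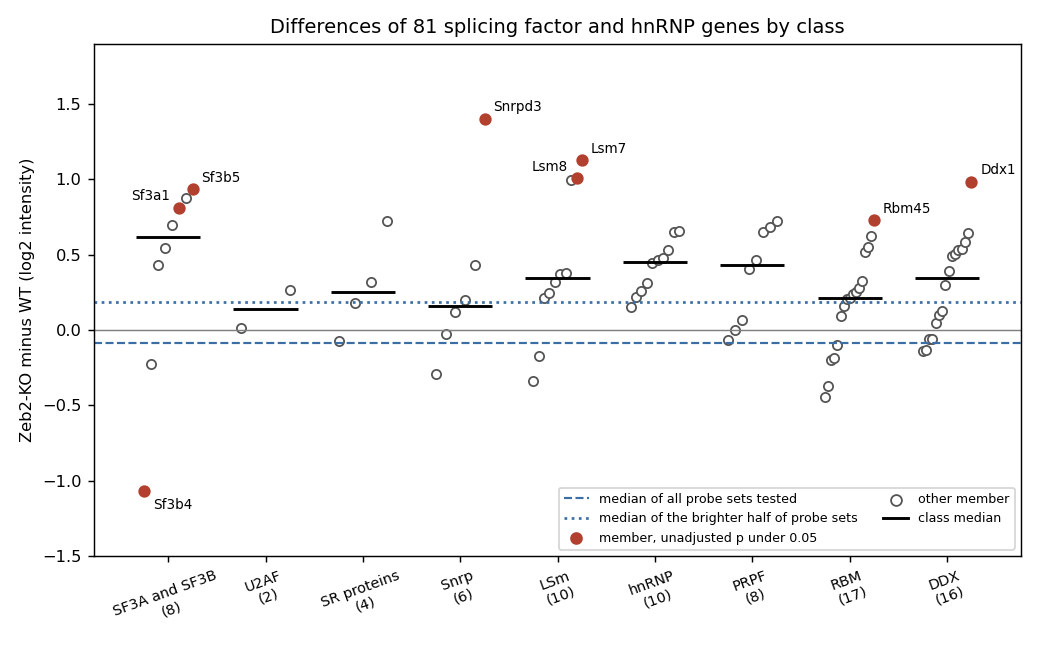
Zeb2-KO minus WT difference (log2 intensity) of each of the 81 members by class, with the number of genes under each class, filled red where the unadjusted limma p is under 0.05. Black bars are class medians, and the blue lines are the medians of all probe sets (dashed, -0.09) and of the brighter ones (dotted, 0.18). Class medians run from 0.14 (U2AF) to 0.62 (SF3A and SF3B), and Sf3b4 lies far below its class at -1.07.

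Among the genes of branch site recognition, the SF3A and SF3B subunits had the highest class median, 0.62 over 8 genes, 6 of them higher. Sf3b4, which encodes the subunit that contacts the pre-mRNA upstream of the branch site, ran the other way. It stood at 7.45, 6.91 and 6.81 in the Zeb2-KO-labelled arrays, against 8.51, 7.90 and 7.97 in WT. The groups did not overlap, and the lowest WT array was above the highest Zeb2-KO array. Means were 7.06 ± 0.35 and 8.13 ± 0.34 (SD, n = 3 each), a difference of -1.07 (SE 0.31) or 0.476-fold, with the smallest p of any member (limma adjusted p = 0.602). The difference stayed between -1.27 and -0.88 with each array left out in turn. It was -1.21 with quantile normalization and -0.72 (SE 0.26) with the spread covariate. It passed only with array weights (limma adjusted p = 0.0196), where 6.69% of all probe sets passed and Zeb2-KO replicate 3 had the largest weight (8.22). A second Sf3b4 probe set, whose identifier falls among those of genes on another chromosome, gave a difference of -0.25 (SE 0.34).

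The other measured SF3B subunits, and SF3A subunits other than Sf3a2, lay higher. With the spread covariate the differences of Sf3a3 and Sf3b6 lay below 0. Sf3b5, a small SF3B subunit, stood at 7.61, 8.49 and 8.06 in the Zeb2-KO-labelled arrays and 6.56, 7.60 and 7.20 in WT, without overlap by a narrow margin (difference 0.94, SE 0.35, limma adjusted p = 0.662). Sf3a1, the SF3A scaffold, stood at 7.69, 8.28 and 7.90 against 7.52, 6.96 and 6.96 in WT (difference 0.81, SE 0.30, limma adjusted p = 0.662). Its groups were also separate, and here WT replicate 1 was the highest WT array, and the difference was 0.75 with the spread covariate, where that of Sf3b5 was 0.35. Sf3b2 (8.66, 8.74 and 8.53 against 7.90, 8.50 and 8.24 in WT) was separate as well, at a difference of 0.44. Sf3b3 lay at 0.70, Sf3a3 at 0.54 and Sf3b6, the subunit at the branch point adenosine, at 0.88, all with overlap. Sf3b6 read 5.56 in Zeb2-KO replicate 1 and 5.46 and 5.61 in WT replicates 1 and 3, against 7.23 to 7.86 in the remaining arrays. Sf3a2 lay at -0.22. With the spread covariate Sf3b2 lay at 0.24, Sf3b3 at 0.25, Sf3a3 at -0.05, Sf3a2 at -0.61 and Sf3b6 at -0.43 (SE 0.41).

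U2af1, the subunit that reads the AG at the 3′ splice site, stood at 8.97, 9.35 and 9.26 in the Zeb2-KO-labelled arrays and 8.61, 8.63 and 9.54 in WT. The highest value was a WT array, and the difference was 0.27 (SE 0.33). Its other probe set gave 0.59. U2af1l4, a relative of U2af1, had a difference of 0.01 (SE 0.39). Sf3b1, U2af2, Hnrnpk and Zrsr2 were not analysed here.

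**Figure D4:**
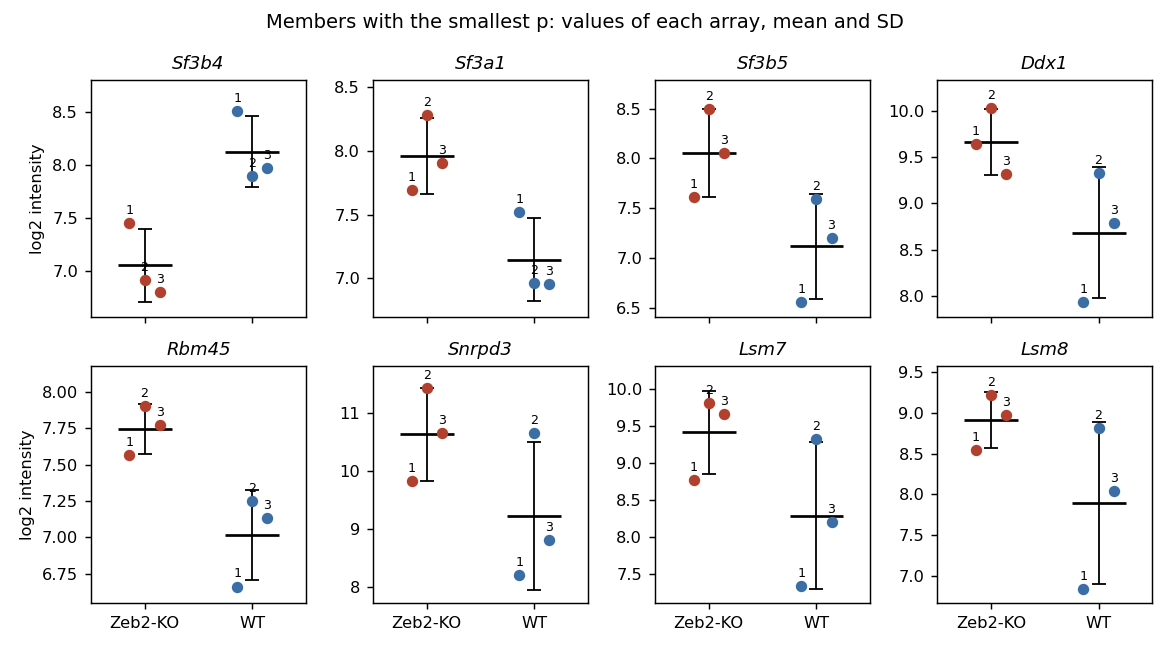
Log2 intensity of each array for the 8 members with the smallest p, Zeb2-KO (red, left) and WT (blue, right), with replicate numbers, mean and SD; vertical axes differ between panels and do not start at 0. Sf3b4 is lower in all 3 Zeb2-KO-labelled arrays, Sf3a1, Sf3b5 and Rbm45 are higher without overlap, and in Ddx1, Snrpd3, Lsm7 and Lsm8 WT replicate 1 is the lowest array.

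RefSeq promoters (build GRCm38.p6) were found for 70 of the 81 members. The 250 bases before the start are shown for 4 members with an unadjusted limma p under 0.05 on the higher side. They were chosen because their windows hold a match, whereas that of Lsm8, which also has such a p, holds none. Windows were drawn only for genes with exactly 1 promoter entry, which left out Sf3b5 and Lsm7, also with such a p. The E2-box CACCTG was searched because Zeb2 is known to bind it. That reason does not cover the ETS motif CCGGAAG or the CCAAT box. Capitals mark matches to all of these, each searched on both strands, so a match may read as its reverse complement. The windows are chr11:4160104-4160353 (+) for Sf3a1, chr12:13249175-13249424 (-) for Ddx1, chr2:76369734-76369983 (+) for Rbm45 and chr10:75517792-75518041 (+) for Snrpd3.
Sf3a1: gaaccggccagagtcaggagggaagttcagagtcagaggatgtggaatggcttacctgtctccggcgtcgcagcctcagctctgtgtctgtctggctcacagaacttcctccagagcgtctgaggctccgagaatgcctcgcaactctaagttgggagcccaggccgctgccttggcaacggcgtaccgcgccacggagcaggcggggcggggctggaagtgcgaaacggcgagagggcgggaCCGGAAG
Ddx1: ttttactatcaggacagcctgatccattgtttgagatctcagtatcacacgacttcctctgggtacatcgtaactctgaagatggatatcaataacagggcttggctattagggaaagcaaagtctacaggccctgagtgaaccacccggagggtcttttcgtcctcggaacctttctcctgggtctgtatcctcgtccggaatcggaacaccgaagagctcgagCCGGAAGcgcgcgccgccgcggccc
Rbm45: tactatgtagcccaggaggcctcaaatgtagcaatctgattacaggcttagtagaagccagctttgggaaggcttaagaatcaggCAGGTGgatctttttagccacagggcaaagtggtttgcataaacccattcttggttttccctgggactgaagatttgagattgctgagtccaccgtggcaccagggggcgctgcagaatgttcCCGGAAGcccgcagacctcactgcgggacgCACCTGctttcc
Snrpd3: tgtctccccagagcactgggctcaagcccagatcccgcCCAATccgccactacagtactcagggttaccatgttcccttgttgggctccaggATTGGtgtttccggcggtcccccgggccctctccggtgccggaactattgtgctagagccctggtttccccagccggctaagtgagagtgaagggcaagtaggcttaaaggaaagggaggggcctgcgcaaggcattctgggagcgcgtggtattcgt
Rbm45 holds 2 E2-box matches and 1 ETS match, Sf3a1 and Ddx1 hold 1 ETS match each, and Snrpd3 holds 2 CCAAT matches. Over the 86 promoters of the 70 members, 10.5% hold the E2-box, against 17.2% of all 32851 promoters of that length. The ETS motif is in 27.9% of the member promoters, against 6.91% of all, and CCAAT in 50%, against 33.8%. Base composition differs too, with a median GC content of 60.4% in member promoters and 52.4% in all. The 8 members with an E2-box had a median difference of 0.44, with 7 higher, and the 62 without one had 0.32, with 48 higher. A match is only a string of letters in this window.

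In the Sm ring, the heteroheptamer around U1, U2, U4 and U5 RNA, Snrpd3 had the largest difference of all members. It stood at 9.82, 11.42 and 10.64 in the Zeb2-KO-labelled arrays and 8.21, 10.65 and 8.81 in WT. WT replicate 2 lay at the level of Zeb2-KO replicate 3, so the groups overlapped, and the difference of 1.40 (SE 0.59, limma adjusted p = 0.673) was 0.90 without WT replicate 1 and 0.16 (SE 0.38) with the spread covariate. Of its ring neighbours, Snrpd2 lay at 0.43 (SE 0.33) and Snrpd1 at 0.12 (SE 0.31). The 5 Snrpd2 probe sets lay between 0.42 and 0.61. Of the proteins particular to 1 snRNP, Snrpc of U1 lay at -0.03, Snrpa1 of U2 at 0.20 and Snrpb2 of U2 at -0.29.

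The LSm2 to LSm8 ring binds the 3′ end of U6 RNA, and 6 of its 7 genes were measured. Lsm7 stood at 8.77, 9.81 and 9.66 in the Zeb2-KO-labelled arrays and 7.34, 9.32 and 8.19 in WT (difference 1.13, SE 0.48, limma adjusted p = 0.673). Lsm8, the subunit that marks the nuclear ring, stood at 8.55, 9.22 and 8.97 against 6.85, 8.81 and 8.04 in WT (difference 1.01, SE 0.45, limma adjusted p = 0.673). Lsm6 stood at 8.67, 10.22 and 9.43 against 6.85, 9.40 and 9.09 in WT (difference 0.99, SE 0.62). In all 3 genes WT replicate 1 was the lowest array and WT replicate 2 lay among the Zeb2-KO-labelled arrays. Without WT replicate 1 the difference of Lsm7 was 0.66 and that of Lsm8 0.48, and with the spread covariate they were 0.22 (SE 0.37) and 0.25 (SE 0.41). Lsm6 stood at 0.20 without WT replicate 1 and turned to -0.22 (SE 0.54) with the covariate. Lsm2 and Lsm3 lay at 0.32 and 0.37, and Lsm5 at -0.17 (SE 0.60). Outside that ring, Lsm1, which replaces Lsm8 in the cytoplasmic ring of mRNA decapping, lay at -0.34 (SE 0.33). Its mean of 6.08 was below the median of all probe sets. Lsm10, a subunit of the U7 snRNP of histone mRNA processing, had the widest spread of the class, at 7.11, 9.30 and 5.84 against 6.47, 8.56 and 6.58 in WT.

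Of the 8 PRPF genes, 6 were higher, with a class median of 0.43 and none at an unadjusted p under 0.05. Prpf8, the U5 protein at the catalytic centre, stood at 8.86, 9.71 and 9.16 in the Zeb2-KO-labelled arrays and 8.28, 9.04 and 8.47 in WT. Only WT replicate 2 reached above the lowest Zeb2-KO array, and the difference was 0.65 (SE 0.33, limma adjusted p = 0.673). Prpf38a, a factor of spliceosome activation, was separate between groups at 8.95, 9.22 and 9.28 against 8.65, 8.89 and 8.69 in WT (difference 0.40, SE 0.27). Prpf18, a second-step factor, had the largest difference of the class, 0.72 (SE 0.53), with overlap. It was 0.37 without WT replicate 1 and 0.01 with the spread covariate. The U4/U6 proteins Prpf3, Prpf4 and Prpf31 lay at 0.68, 0.46 and -0.07. Prpf3 was at 0.01 without WT replicate 1 and at -0.31 (SE 0.51) with the covariate, and Prpf8 was at 0.14 with it.

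SR proteins and hnRNPs bind pre-mRNA outside the core. Of the SR genes, Srsf4 lay at 0.73 (SE 0.37), Srsf3 at 0.32 and Srsf10 at 0.18. Srsf2 stood at 9.91, 10.45 and 10.40 in the Zeb2-KO-labelled arrays and 10.56, 10.46 and 9.96 in WT, a difference of -0.07 (SE 0.30) whose 2 groups span nearly the same range. The 10 hnRNP genes had a median of 0.45 and ran from 0.15 (Hnrnpab) to 0.66 (Hnrnpul1), and none had an unadjusted p under 0.05. Hnrnpul1 was the 1 hnRNP gene without overlap, at 9.26, 9.77 and 9.44 against 8.31, 9.16 and 9.03 in WT. Hnrnpc, which coats long nascent introns, lay at 0.48, and Hnrnpll, known for its part in alternative splicing of CD45 in lymphocytes, at 0.65. WT replicate 1 held the lowest value of 8 of the 10 hnRNP genes. With quantile normalization Hnrnpab turned to -0.03. With the spread covariate 3 of the 10 turned, Hnrnpab to -0.16, Hnrnpl (0.53 before) to -0.08 and Hnrnph2 (0.26 before) to -0.92 (SE 0.23).

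The 17 numbered RBM genes are a mixed class of RNA-binding proteins, and 12 were higher, with a median of 0.21. Rbm45 stood at 7.57, 7.90 and 7.77 in the Zeb2-KO-labelled arrays and 6.66, 7.25 and 7.14 in WT. All 3 Zeb2-KO-labelled arrays were above all WT arrays, and the difference was 0.73 (SE 0.29, limma adjusted p = 0.662), 0.55 without WT replicate 1 and 0.46 (SE 0.22) with the spread covariate. Rbm17, an alternative splicing factor that binds SF3B1, was the other RBM gene without overlap, at 7.88, 7.98 and 8.68 against 7.17, 7.78 and 7.73 in WT (difference 0.62, SE 0.33). On the lower side lay Rbm43 at -0.44 (SE 0.40) and Rbm38, a p53-inducible regulator of mRNA stability, at -0.37 (SE 0.31). Rbm44 and Rbm46, genes known from germ cells, had means of 4.63 and 5.82 in the Zeb2-KO-labelled arrays and 4.83 and 6.01 in WT, below the median of all probe sets.

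Of the 16 DDX genes 12 were higher, with a median of 0.35. Ddx1, a helicase of the tRNA ligase complex, stood at 9.65, 10.03 and 9.32 in the Zeb2-KO-labelled arrays and 7.93, 9.33 and 8.79 in WT. Zeb2-KO replicate 3 and WT replicate 2 were at one level, and the difference was 0.99 (SE 0.38, limma adjusted p = 0.662), 0.61 without WT replicate 1 and 0.47 (SE 0.38) with the spread covariate. The helicases of the spliceosome were Ddx42 (0.64), Ddx41 (0.53) and Ddx46 (0.30), and of these Ddx46 was without overlap. Ddx41, a gene of inherited myeloid neoplasia in humans, stood at 8.07, 7.33 and 6.77 against 6.80, 6.89 and 6.87 in WT. Its spread was in the Zeb2-KO-labelled arrays, the lowest of which lay below all WT arrays. The nucleolar helicases of ribosome assembly (Ddx10, Ddx18, Ddx21, Ddx24, Ddx47, Ddx49, Ddx50 and Ddx52) ran from 0.05 to 0.58 with a median of 0.44. Ddx28, a helicase of the mitochondrial ribosome, lay at -0.14 (SE 0.48), Ddx20, of the SMN complex that loads Sm rings, at -0.13 and the germ cell gene Ddx4 at -0.06. Means of Ddx28 (6.01) and Ddx4 (3.98) were below the median of all probe sets.

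For 11 members more than 1 probe set carries the symbol, 99 probe sets in all. For 16 of these the neighbouring identifiers belong mostly to genes of another chromosome, whereas 95.8% of all single-symbol probe sets lie among genes of their own, so near-identical copies elsewhere in the genome may share the signal. They include the probe sets used for Hnrnpf, Hnrnph2, Lsm5, Rbm34 and Srsf3. With only probe sets of the own chromosome 79 members remained, 61 of them higher, and the median was 0.32. Probe sets of 1 gene gave like differences in Lsm6 (0.93 to 1.27), Lsm7 (1.13 and 1.30) and Srsf3 (0.21 to 0.32), and they split in sign in Lsm5 (-0.17, -0.01 and 0.56).

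Splicing genes outside the symbol patterns were also mostly higher. Of 130 listed, 86 were measured, and 71 were higher (82.6%, against 44.6% of all and 63.5% of the brighter probe sets), with a median of 0.34. With the spread covariate 45 were higher, where 49% of all probe sets were, and the median was 0.06. Without WT replicate 1 the median was 0.15. None passed the adjusted threshold, and at an unadjusted p under 0.05 lay 6, all higher, 6.98% of the list, where 7.02% of all probe sets had such a p, which is the background. Wbp4, a protein of the precatalytic spliceosome, stood at 6.70, 7.03 and 7.13 in the Zeb2-KO-labelled arrays and 5.36, 6.44 and 5.88 in WT (difference 1.06, SE 0.33, limma adjusted p = 0.606). Pqbp1, a tri-snRNP partner, lay at 0.99, Pnn, a protein of the exon junction periphery, at 0.79 and Casc3, a subunit of the exon junction complex, at 0.72, each without overlap. Sf1, which first binds the branch site, was also without overlap, at 10.32, 10.37 and 10.36 against 9.67, 9.73 and 10.01 in WT (difference 0.55, SE 0.27). Ptbp1, a repressor of exon inclusion, lay at 0.24. The lowest were Snrnp27 (-0.30), Syf2 (-0.29), Mbnl2 (-0.26) and Xab2 (-0.25), none of them with an unadjusted p under 0.05.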

How the data were processed

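Per the labels' protocols, total RNA from the sorted cells was amplified and carried a biotin label, with 1 array for each sample. In the deposited table each value is the intensity of a probe set on an array, computed by the authors with RMA (background correction, normalization and summary into probe sets) per the submitters' processing notes; no version of RMA is given in the sources used here. The values are linear, so log2 was taken. Of 20220 probe sets, 5610 with identifiers below the first annotated one were left out as controls, and 14610 were tested, 11229 of them with 1 gene symbol. Median intensity was 94.3 to 99.2 per array. Arrays carry no read depth, and 3 arrays per group limit the precision.

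Groups came from the titles. Zeb2-KO minus WT was estimated by limma 3.58.1 under R 4.3.3 (lmFit and eBayes; residual degrees of freedom 4, prior 6.87). Benjamini-Hochberg adjusted p-values cover the whole set of 14610 and were called at 0.05. Nothing says whether a sample pools mice. Tested on 10 simulated tables of this comparison with 14610 probe sets, the fit called 5.6% of true log2 changes of 1, and 69% where the change was 2. Alternatives were other normalizations, filters, variance priors, array weights, covariates, a replicate block and single arrays left out. The members, lists and rules were chosen with earlier results of these data known. Named members are the 8 with the smallest p in each direction, the extremes of each class, 8 fixed genes and genes whose probe sets disagree; outside the patterns, 4 in each direction and 4 fixed genes, of which Srrm2 and Zrsr2 were not analysed here. Other members named show a class or a probe set. A RefSeq gene table (GRCm38.p6) held the identifiers of all 81 members and of 11184 single-symbol probe sets.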

Additional observations from a re-analysis of the deposited data

How the results depend on the processing

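The median difference of the members kept its sign in every alternative tried. It ran from 0.15 to 0.48 with 1 array left out, and was 0.15 with quantile normalization, 0.07 with array spread in the model and 0.24 without both arrays of raised Y-linked signal, an alternative chosen after seeing the data, as was that of own-chromosome probe sets. Members past the adjusted threshold numbered 10 with array weights, where 978 probe sets passed it, and 0 elsewhere. Splicing genes outside the patterns numbered 5 and 0. The weights ran from 0.379 to 8.22, the largest being that of Zeb2-KO replicate 3. With array weights 28 members had an unadjusted p under 0.05, 24 higher and 4 lower, where 32.8% of all probe sets did. That total was 4 with quantile normalization (3 higher), where 6.29% of all probe sets did. It was 5 with a robust prior (4 higher, background 6.44%) or with the control probe sets (4 higher, background 5.5%). In a fit with a replicate block it was 16 (15 higher), where 17.8% of all probe sets did. With the spread covariate it was 6, 0 of them higher and 6 lower, where 5.13% of all probe sets had such a p. Leaving out single arrays gave a total from 2 to 21, where the share of all probe sets ran from 3.68% to 11.4%. The higher count then ran from 1 to 20 and the lower count from 1 to 2. The replicate numbers were not taken as pairs in the reported fit. Deviations of same-numbered arrays correlated at 0.36, 0.414 and 0.0468, and those of other pairs at -0.375 to 0.0301. Each array thus correlated best with the array of its own number in the other group. Whether the numbers mark pairs was not tested. The replicate block brought 0 members, and 0 of all probe sets, past the adjusted threshold.

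Signs turned for many members. With the spread covariate 21 of the 63 higher members lay below 0, among them Lsm6 (-0.22), Sf3b6 (-0.43), Prpf3 (-0.31) and Hnrnph2 (-0.92), and 5 of the 18 lower ones above it. With 1 array left out 22 members crossed 0, 11 of them higher and 11 lower. The values of the genes named by rule follow. With quantile normalization Hnrnpab lay at -0.0288 and U2af1l4 at -0.23, and with arrays centred on their medians U2af1l4 at -0.00374. With array weights Ddx41 lay at -0.0038, Prpf31 at 0.0336, Rbm46 at 0.0113, Srsf2 at 0.23 and U2af1l4 at -0.53. With the spread covariate Ddx28 also lay at 0.52, Hnrnpab at -0.16 and Rbm46 at 0.10. Without both arrays of raised Y-linked signal Lsm1 lay at 0.0211, Snrpb2 at 0.0623, Srsf2 at 0.21 and U2af1l4 at -0.0377. The ranges with 1 array left out include Ddx28 (-0.636 to 0.257), Prpf31 (-0.337 to 0.171), Sf3a2 (-0.647 to 0.101), Snrpb2 (-0.53 to 0.0129), Srsf2 (-0.256 to 0.0977) and U2af1l4 (-0.386 to 0.388). The cause was not tested. Brightness over background could not be judged from summarised values.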

Other observations

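Cwc22, a spliceosome protein that brings the exon junction complex to introns, stood out for 1 array and was chosen after its values were seen. It read 11.62, 11.44 and 11.66 in the Zeb2-KO-labelled arrays, and 5.12, 11.62 and 11.57 in WT replicates 1 to 3. WT replicate 1 thus lay far below the other 5 arrays, which were close together, and the difference of 2.14 (SE 1.34, limma adjusted p = 0.673) rests on that array.

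Within SF3B the measured subunits did not all lie on one side. Sf3b4 was below WT by more than any other member while Sf3b2, Sf3b3, Sf3b5 and Sf3b6 lay above it. With array spread in the model Sf3b6 lay at -0.43, and 6 members lay lower than Sf3b4 (-0.72), the lowest being Lsm5 (-1.38). The difference between Sf3b4 and the other subunits was not tested. Of 8 probe sets that carry a member's symbol together with others, 2 with Hnrnpa1 lay at 0.56 and 0.55 and those with Rbm4 and Rbm14 at 0.65 and 0.58, none with an unadjusted limma p under 0.05.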
